A study of Mus musculus with 4 samples.

Results

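The genes described here encode cytochrome P450 and carboxylesterase enzymes, read in Neuro-2a cells by Affymetrix Clariom S Mouse arrays. A gene was a member when its symbol began with Cyp or Ces followed by a digit, with Cyp51 left out. The rule found 115 genes with 1 probe set each, 98 P450 and 17 carboxylesterase genes, of 19505 named genes on the array. RefSeq (assembly GRCm38.p6) lists 4 of the 115 as pseudogenes, and 6 of its 117 protein-coding genes that fit the rule (Ces1h, Ces2c, Cyp19a1, Cyp2c29, Cyp2d11 and Cyp4v3) were not analysed here. Neuro-2a is a mouse neuroblastoma line, and the labels give its strain as Albino strain A. Both groups were semi-confluent cultures grown in medium with serum. The vehicle group (2 arrays) had DMSO at 0.1%, and the deltamethrin group (2 arrays) had the pyrethroid at 30 µM, both for 24 h. The labels do not give the DMSO content of the treated medium. The series has 1 cell line, 1 dose and 1 time.

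Deltamethrin is an ester, and mammals clear pyrethroids mainly in the liver, where carboxylesterases split the ester bond and P450 enzymes oxidise the molecule. P450s are haem enzymes that draw electrons from NADPH through partner proteins. The CYP1, CYP2 and CYP3 families act largely on foreign compounds, the CYP4 family on fatty acids, and other families on sterols, bile acids, vitamin D and retinoids. Many genes of the foreign-compound families are switched on by ligand-bound receptors, chiefly the aryl hydrocarbon receptor (AhR), PXR and CAR.

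Most members were dim in these cells before any pyrethroid was added. The mean of the 2 vehicle arrays was above log2 8 for 6 of the 115 members (5.22%), against 36.8% of all 22206 probe sets. The 6 were the P450 genes Cyp20a1, Cyp2u1, Cyp2c55, Cyp4f16, Cyp2d13 and Cyp39a1, and 0 of the 17 carboxylesterase genes reached that level. Over the 115 members the median vehicle level was 3.80 on the log2 scale, with a range from 2.50 to 12.09, while the arrays' own medians were 5.61 to 5.63. The vehicle means of 11 members (9.57%, all P450 genes) lay above 5.60, the median of all probe sets over the 4 arrays, against 50.1% of all probe sets. The table had no detection calls, so a dim value does not say whether a transcript was present, and a probe set's level also depends on its probes, so levels are not ranked between genes.

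**Figure D1:**
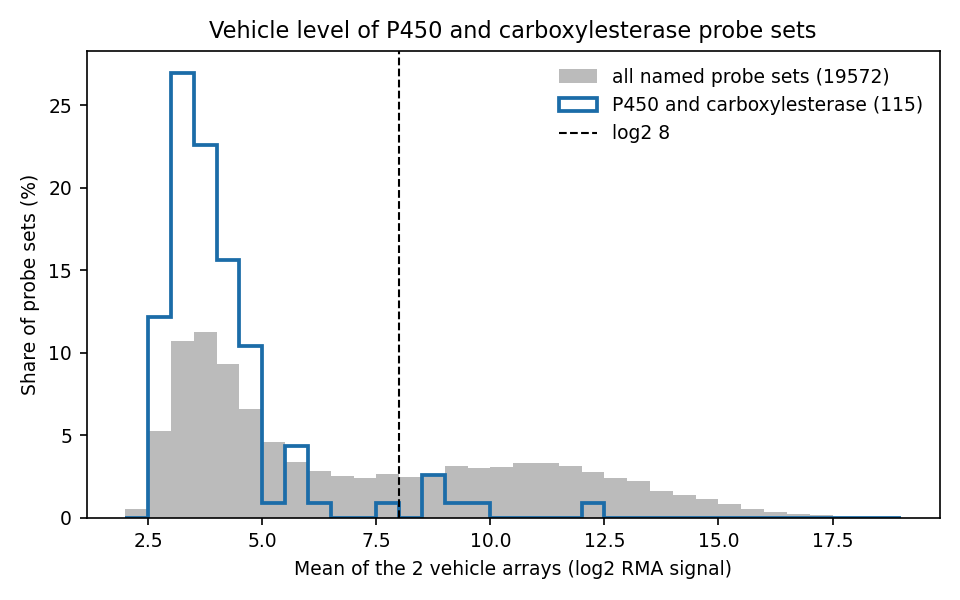
Histogram of vehicle means (log2 signal, n = 2 arrays) as percent of probe sets, with the 115 members as a blue outline over the 19572 named probe sets in grey and log2 8 as a dashed line. Most members lie below the array medians of 5.61 to 5.63, and 6 P450 genes lie above log2 8.

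Promoter sequence is shown for 5 members that the results turn on and that the RefSeq table holds: Cyp20a1, Cyp2c55 and Cyp4f16, the 3 of the 6 above log2 8 with an entry, Cyp4b1 with the largest estimated rise, and Cyp1a1 as the classical target of the AhR. Each is the 250 bases before the first listed start on GRCm38.p6, read 5′ to 3′ on the gene's strand. Capitals mark GCGTG or CACGC, the core that the AhR binds and its reverse complement, and TATAAA, the TATA box.
Cyp20a1, chr1:60343050-60343299, plus strand: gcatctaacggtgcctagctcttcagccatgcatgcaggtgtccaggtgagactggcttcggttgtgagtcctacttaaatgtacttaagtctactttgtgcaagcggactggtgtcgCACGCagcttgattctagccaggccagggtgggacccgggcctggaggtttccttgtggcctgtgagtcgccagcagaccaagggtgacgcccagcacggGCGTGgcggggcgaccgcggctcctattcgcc
Cyp2c55, chr19:39006769-39007018, plus strand: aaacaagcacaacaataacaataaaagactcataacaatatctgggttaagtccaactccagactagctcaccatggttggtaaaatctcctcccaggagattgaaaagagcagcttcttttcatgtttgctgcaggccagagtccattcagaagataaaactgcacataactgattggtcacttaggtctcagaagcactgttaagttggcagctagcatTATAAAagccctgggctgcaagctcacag
Cyp4f16, chr17:32536307-32536556, plus strand: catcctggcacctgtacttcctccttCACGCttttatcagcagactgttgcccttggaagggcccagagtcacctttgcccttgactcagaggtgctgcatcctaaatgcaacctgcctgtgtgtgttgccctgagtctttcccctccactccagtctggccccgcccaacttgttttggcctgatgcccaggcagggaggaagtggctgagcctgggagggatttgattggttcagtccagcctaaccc
Cyp4b1, chr4:115647722-115647971, minus strand: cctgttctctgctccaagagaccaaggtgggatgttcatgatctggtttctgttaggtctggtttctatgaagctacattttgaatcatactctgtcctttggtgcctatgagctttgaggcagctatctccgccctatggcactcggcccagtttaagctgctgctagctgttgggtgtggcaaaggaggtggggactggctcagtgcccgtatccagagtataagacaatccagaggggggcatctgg
Cyp1a1, chr9:57697363-57697612, plus strand: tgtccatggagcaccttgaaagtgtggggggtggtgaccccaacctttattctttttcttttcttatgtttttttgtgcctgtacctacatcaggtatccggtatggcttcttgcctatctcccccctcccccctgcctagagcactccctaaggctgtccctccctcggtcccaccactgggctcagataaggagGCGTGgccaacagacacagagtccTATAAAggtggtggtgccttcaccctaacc
The Cyp20a1 window held 15 CG dinucleotides and 2 AhR cores, 132 and 32 bases before the start. The Cyp1a1 window held 3 CG dinucleotides, 1 AhR core 54 bases before the start and a TATA box 30 bases before it. Cyp4f16 had 2 CG dinucleotides and 1 AhR core 224 bases before the start. Cyp2c55 had 0 CG dinucleotides and a TATA box 29 bases before the start, and Cyp4b1 had 3 CG dinucleotides and no match to the motifs searched.

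These windows were set beside all 27025 promoters of the same length in the table. Of the 115 members, 85 had an entry. Their median number of CG dinucleotides was 2, against 6 over all genes, and 7 of 85 (8.24%) held 10 or more, against 38.2%. TATAAA, sought on both strands, was in 28 member promoters (32.9%) and in 13.0% of all. GCGTG, sought on both strands, was in 14 (16.5%) against 28.2%, and TGACNNNGC, the antioxidant response element that NRF2 binds, was in 2 (2.35%) against 10.1%. The letters GCGTG contain a CG dinucleotide, and whether their share differs beyond the members' lower CG count was not tested. None of the matches to different motifs overlapped in the 5 printed windows. Many members are tandem copies with related promoters, a match is not evidence of binding, and no window speaks of more distant elements.

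No member passed the test for a response to deltamethrin: 0 of 115 had a limma adjusted p below 0.05, against 0.432% of all probe sets (79 rose and 17 fell). The estimated differences, deltamethrin minus vehicle, ran from -1.06 to 1.03 on the log2 scale, with a median of -0.03 beside -0.02 over all probe sets. At an unadjusted p below 0.05 there were 10 members (8.70%, 3 higher and 7 lower), against 13.7% of all probe sets. Both deltamethrin arrays were above both vehicle arrays for 13 members (11.3%), against 20.3% of all probe sets. Both were below for 20 members (17.4%), against 23.5%, and the groups overlapped for the other 82. All 4 shares of members lay below those of the whole array, of which many probe sets were brighter. Over the 14031 probe sets at or below log2 8 in vehicle, the unadjusted share was 11%, the share with both arrays higher 16.9% and the share with both lower 20.1%, closer to those of the members. The 95% interval of the difference lay within a 2-fold change either way for 99 members (86.1%), against 84.5% of all probe sets, so for the other 16 a change of that size was not bounded by these arrays.

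On arrays, background signal compresses the differences of dim probe sets, so a small difference at these levels is a weak bound on the RNA. The precision was set by 4 arrays. The standard errors (SE) are the moderated ones of limma, which also draw on the variance over all probe sets. For the members' differences they were 0.16 to 0.43, with a median of 0.20. An exact two-sided permutation test of 2 against 2 arrays cannot give a p below 0.333, and none was used for single genes. The labels leave unstated whether the 2 arrays of a group are separate cultures, so the p-values cover only the spread between these arrays, which may be technical. No batch is named in the labels either, and a batch that followed the treatment cannot be told apart from it.

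**Figure D2:**
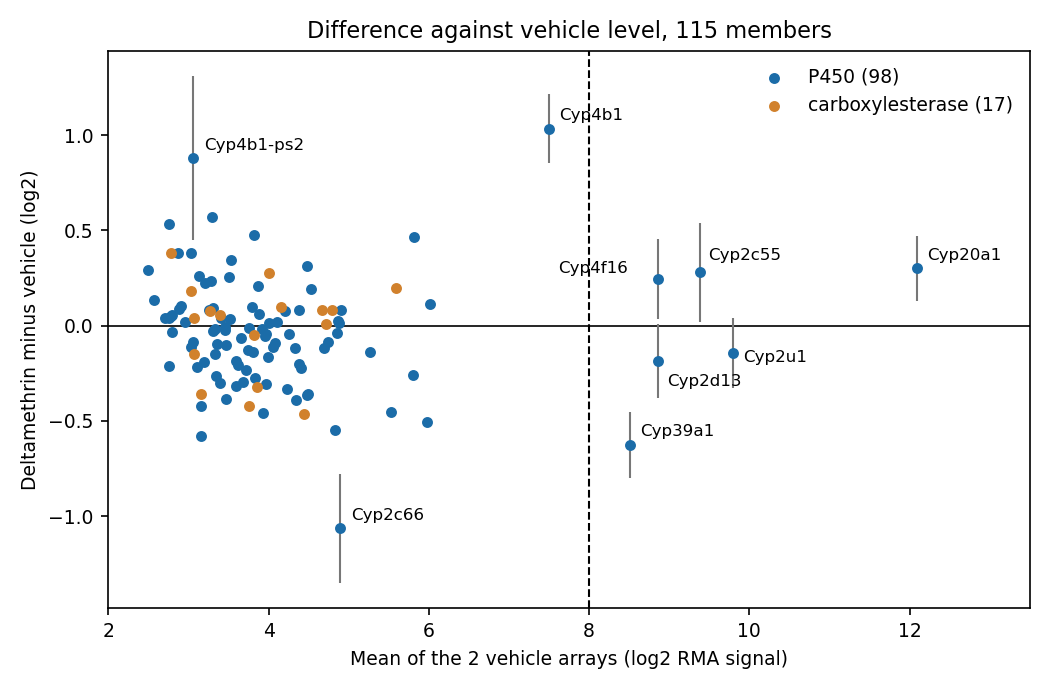
Deltamethrin minus vehicle (log2) against the vehicle mean (log2) for the 98 P450 genes in blue and 17 carboxylesterase genes in orange, with bars of 1 SE on the labelled genes and a dashed line at log2 8. Cyp4b1 at 1.03 and Cyp39a1 at -0.62 stand farthest from 0 among the brighter members, and neither passed the limma test.

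Of the 6 members above log2 8, Cyp20a1, an orphan P450 whose substrate is not settled, was higher on both treated arrays. It read 12.01 and 12.17 in vehicle and 12.44 and 12.34 with deltamethrin, with no overlap between the groups. The difference was 0.30 ± 0.17 (SE) with a limma adjusted p of 0.499. Its 95% interval was -0.11 to 0.71.

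Cyp2u1, a fatty acid hydroxylase, read 9.72 and 9.87 in vehicle and 9.79 and 9.51 with deltamethrin. The groups overlapped, and the difference of -0.14 ± 0.18 (SE) had an interval of -0.59 to 0.30. Cyp2c55, a member of the mouse Cyp2c cluster, read 9.40 and 9.37 in vehicle and 10.03 and 9.30 with deltamethrin. Its 2 treated arrays fell on either side of the controls, and the estimate of 0.28 ± 0.26 (SE) became -0.09 without deltamethrin array 1.

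Cyp4f16, from the branch of CYP4 enzymes that hydroxylates fatty acids and eicosanoids, read 8.65 and 9.08 in vehicle and 9.00 and 9.22 with deltamethrin, with overlapping groups. Cyp2d13, listed by RefSeq as a pseudogene, read 8.70 and 9.03 in vehicle and 8.78 and 8.58 with deltamethrin, again overlapping. Whether its probes also bind transcripts of close Cyp2d relatives was not tested.

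Cyp39a1, which hydroxylates an oxysterol on one route to bile acids, lay just inside the threshold with a vehicle mean of 8.51 ± 0.04 (SD, n = 2). It read 8.53 and 8.48 in vehicle and 7.77 and 7.99 with deltamethrin, both treated arrays below both controls. The difference was -0.62 ± 0.17 (SE; 95% interval -1.04 to -0.21), and the limma adjusted p of 0.213 missed the threshold. Its deltamethrin mean was 7.88, so it stood below log2 8 in the treated group.

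Cyp4b1 lay just outside the threshold and crossed it the other way. This P450 hydroxylates fatty acids and activates some protoxins, such as ipomeanol, in lung. It read 7.48 and 7.52 in vehicle and 8.39 and 8.68 with deltamethrin, with a gap of 0.87 between the groups' nearest arrays. The difference of 1.03 ± 0.18 (SE; 95% interval 0.60 to 1.47), or 2.05-fold, was the largest rise estimated among the members, and its limma adjusted p of 0.0959 missed the threshold. The call changed under 2 other settings of limma: the adjusted p was 0.0364 when the dimmest 40% of probe sets were dropped and 0.0257 with a mean-variance trend, and over all alternatives it ran from 0.0257 to 0.678. The related pseudogene Cyp4b1-ps2, named after its values were seen, read 2.87 and 3.25 in vehicle and 3.25 and 4.63 with deltamethrin, so its estimate of 0.88 ± 0.43 (SE) came mainly from 1 array.

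**Figure D3:**
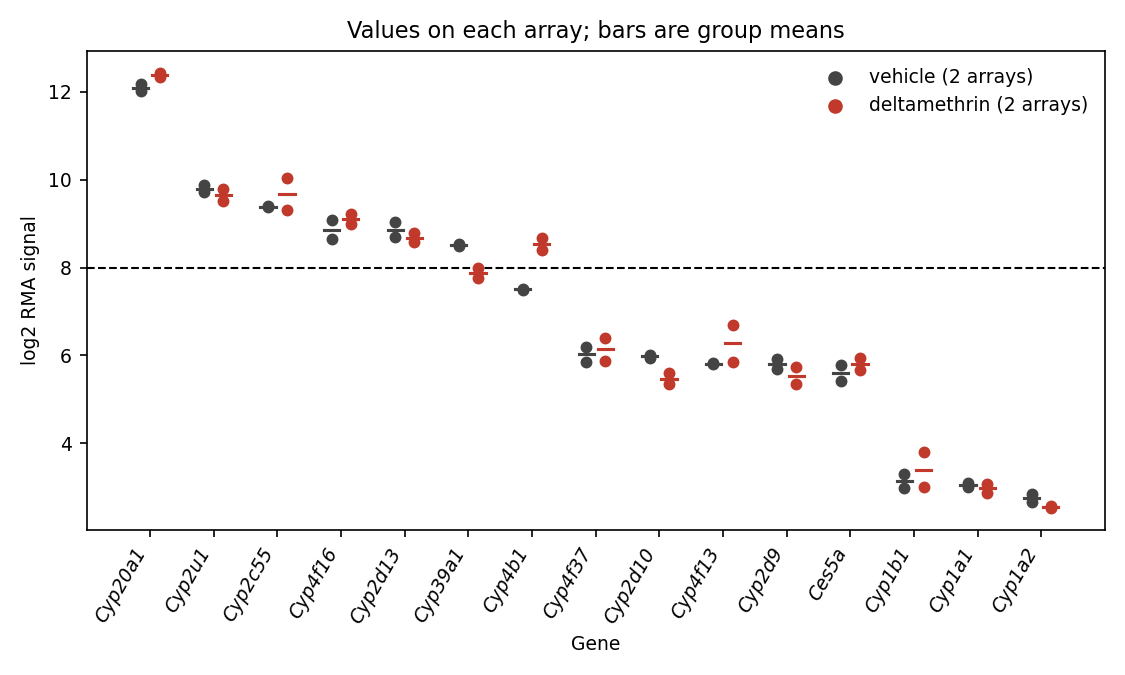
Log2 signal on each of the 4 arrays for the 12 members whose higher group mean exceeded 5.60 and for the 3 CYP1 genes, with vehicle points in grey, deltamethrin points in red, short bars at the group means and a dashed line at log2 8. Cyp4b1 shows both treated arrays above log2 8 and both controls below it, Cyp39a1 shows the reverse, and Cyp1a1 stays between 2.87 and 3.10.

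The CYP1 family, whose transcription is the standard readout of AhR activation, stayed dim in both groups. Cyp1a1 read 3.01 and 3.10 in vehicle and 2.87 and 3.07 with deltamethrin, a difference of -0.09 ± 0.17 (SE; 95% interval -0.50 to 0.33). Cyp1a2 read 2.84 and 2.66 against 2.56 and 2.52, both treated arrays lower. Cyp1b1 read 3.30 and 2.97 against 3.79 and 3.0, overlapping and high on 1 treated array. None of the 3 passed the test, beside 0.432% of all probe sets. The estimates of Cyp1a1 and Cyp1b1 changed sign, to 0.015 and -0.135, without deltamethrin array 1.

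In the CYP2 family 32 of 48 estimates were below 0, with a median of -0.10. The Cyp2d genes, which in mouse form a tandem cluster of close copies, had 9 of 9 estimates below 0, from -0.50 to -0.04, against 52.9% of all probe sets. Cyp2d10 read 6.01 and 5.94 in vehicle and 5.35 and 5.59 with deltamethrin, both treated arrays lower, with a difference of -0.50 ± 0.18 (SE) and a limma adjusted p of 0.298. Cyp2d9 read 5.92 and 5.68 against 5.73 and 5.35, overlapping. Of the 9 Cyp2d genes 2 had both treated arrays below both controls, near the 23.5% of all probe sets. Such copies can share labelled RNA, which was not tested, so their estimates may not be 9 separate observations.

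The Cyp2c genes, a main group for pyrethroid oxidation in liver, gave 14 probe sets with a median difference of -0.02. Cyp2c66, singled out after its values were seen, had the most negative estimate of all members. It read 5.11 and 4.68 in vehicle and 3.47 and 4.19 with deltamethrin, a difference of -1.06 ± 0.28 (SE) with a limma adjusted p of 0.201, and its vehicle arrays were below the middle of the arrays. The 9 Cyp3a genes, which include the classical PXR targets, had vehicle means no higher than 4.85 and a median difference of -0.04. The 5 Cyp2b genes, classical targets of CAR, had vehicle means no higher than 4.33 and a median of -0.19.

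The CYP4 family had a median of 0.19 over 21 genes, with its subfamilies unlike each other. Both treated arrays were higher for 7 of the 21 and both lower for 0, beside 20.3% and 23.5% of all probe sets. Among 10 Cyp4f genes 8 estimates were above 0, against 46.4% of all probe sets, and 4 had both treated arrays higher. Whether Cyp4f genes share labelled RNA was not tested, so the 10 may not be separate observations. Cyp4f18, the lowest of them at -0.45 and named after its values were seen, read 5.60 and 5.46 in vehicle and 4.54 and 5.61 with deltamethrin. The 8 Cyp4a genes, fatty acid hydroxylases that PPAR-alpha controls in liver, had 5 estimates below 0, a median of -0.03 and a range of -0.39 to 0.53. Cyp4f13 read 5.80 and 5.83 in vehicle and 5.86 and 6.70 with deltamethrin, so its 0.46 ± 0.28 (SE) rested mostly on 1 array. Cyp4f37 read 5.84 and 6.20 against 6.39 and 5.88, overlapping. Cyp4f15 and Cyp4a12a, picked after their values were seen as the other members higher at an unadjusted p below 0.05, had estimates of 0.57 and 0.53 from vehicle means of 3.29 and 2.75. Whether the CYP2 and CYP4 medians differ was not tested.

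**Figure D4:**
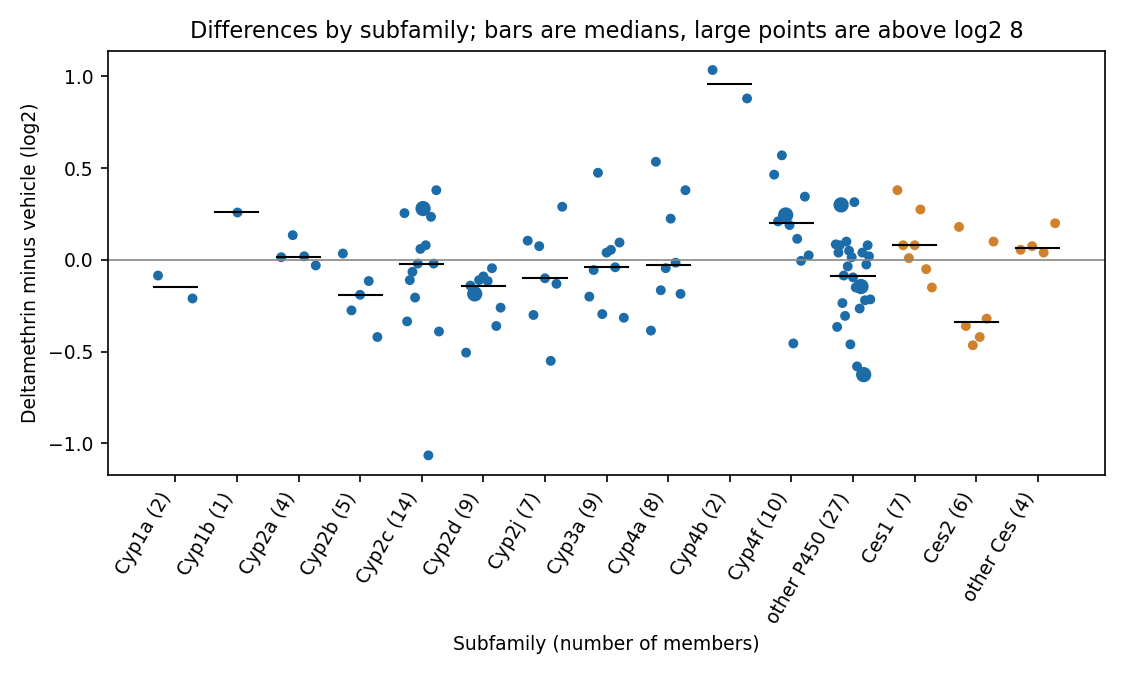
Deltamethrin minus vehicle (log2) of each member, 1 point per gene, by P450 subfamily (blue) or carboxylesterase family (orange), with bars at the medians and large points for genes above log2 8 in vehicle. All 9 Cyp2d points lie below 0 and 8 of 10 Cyp4f points above it, and none of the points passed the limma test.

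Members in the lists of physiological routes given next were below log2 8 in vehicle as well, apart from Cyp39a1. Of 5 steroid hormone synthesis genes, 6 oxysterol and bile acid genes and 6 vitamin D and retinoid genes, 0 passed the test. Over all probe sets the share was 0.432%. The vitamin D and retinoid genes had a median difference of -0.20, and 3 of the 6 had both treated arrays lower, beside 23.5% of all probe sets. The groups overlapped for Cyp24a1, Cyp26b1 and Cyp26c1, with differences of -0.085, 0.1 and -0.035. Those with both treated arrays lower were as follows. Cyp2r1, a liver vitamin D 25-hydroxylase, read 3.33 and 2.98 in vehicle and 2.61 and 2.54 with deltamethrin. Cyp27b1, which makes the active hormone, read 4.04 and 3.82 against 3.37 and 3.57, and Cyp26a1, which clears retinoic acid, read 3.95 and 3.99 against 3.75 and 3.58. Their limma adjusted p-values were 0.271, 0.346 and 0.491. Cyp46a1, the cholesterol hydroxylase of neurons, read 4.42 and 4.39 against 3.91 and 4.46.

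Of the 17 carboxylesterases, the enzymes that split the pyrethroid ester, 0 passed the test, beside 0.432% of all probe sets. All 17 intervals of the signal difference lay within a 2-fold change, against 84.5% of all probe sets. Since 0 of the 17 vehicle means lay above the median of all probe sets, these intervals are a weak bound on the RNA. Differences ran from -0.46 to 0.38, with a median of 0.05 that became -0.10 without vehicle array 2. Ces5a, a secreted carboxylesterase of the epididymis, had the highest vehicle mean, 5.59 ± 0.25 (SD, n = 2), which lay just under the median of all probe sets, and its deltamethrin mean of 5.79 lay above it. It read 5.77 and 5.42 in vehicle and 5.66 and 5.93 with deltamethrin. The 7 Ces1 genes, the family that holds the main liver enzymes, had vehicle means no higher than 4.79 and differences of -0.15 to 0.38.

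The Ces2 family, which prefers esters with a large alcohol group, had 4 of 6 estimates below 0, with a median of -0.34, against 52.9% of all probe sets below 0. Ces2e read 4.49 and 4.40 in vehicle and 4.18 and 3.78 with deltamethrin. Ces2f read 3.72 and 3.80 against 3.25 and 3.43, and Ces2b read 3.22 and 3.08 against 2.93 and 2.65. In these 3 of 6 genes both treated arrays were below both controls, beside 23.5% of all probe sets, and their limma adjusted p-values were 0.374, 0.357 and 0.453. Whether Ces2 genes share labelled RNA was not tested, so the 6 may not be separate observations. Ces1a read 2.85 and 2.72 against 3.40 and 2.93, the 1 carboxylesterase with both treated arrays higher, with a limma adjusted p of 0.493. Each of these 4 genes lay below the middle of the arrays in both groups.

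Measured genes for electron donors and helpers of P450s read high. All 6 were above log2 8 in vehicle, against 36.8% of all probe sets. The test was passed by 0 of 6, beside 0.432% of all probe sets. Both treated arrays were lower for 2 of the 6, Cyb5b and Cyb5a, and higher for 1, Pgrmc1, beside 23.5% and 20.3% of all probe sets. Cyb5b, an outer mitochondrial cytochrome b5, read 15.51 and 15.41 in vehicle and 15.28 and 15.19 with deltamethrin. Cyb5a, the microsomal cytochrome b5, read 8.54 and 8.64 against 8.51 and 8.25. P450 oxidoreductase (Por), Fdxr and Fdx2 were not analysed here. Of the P450 genes outside the symbol rule, Cyp51, the lanosterol demethylase of cholesterol synthesis, read 14.62 and 14.74 against 14.91 and 14.96, with a difference of 0.26 ± 0.17 (SE). The prostacyclin synthase gene Ptgis, also a P450, differed by -0.02, a sign that turned under several settings.

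Genes of the P450 cofactor haem did include a call. Hmox1, the inducible haem oxygenase that breaks haem down, rose by 1.88 ± 0.19 (SE) on the log2 scale, from 12.65 and 12.98 in vehicle to 14.70 and 14.69 with deltamethrin (limma adjusted p 0.0245). It was the 1 of 12 measured haem genes that passed, beside 0.432% of all probe sets. Both treated arrays were higher for 6 of the 12 and lower for 0, beside 20.3% and 23.5% of all probe sets. Dim probe sets lower these 2 shares, while 9 of the 12 haem genes were above log2 8 in vehicle. Blvrb, a biliverdin reductase, read 8.80 and 8.94 against 10.06 and 9.77, with a limma adjusted p of 0.0984. Alas1, the rate-limiting enzyme of haem synthesis, read 11.38 and 11.09 against 11.59 and 11.75.

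Among 14 other ester and epoxide hydrolases, 1 passed, beside 0.432% of all probe sets. Both treated arrays were higher for 7 of the 14 and lower for 1, Pon1 at -0.345, beside 20.3% and 23.5% of all probe sets. Nceh1, a microsomal neutral cholesterol ester hydrolase, rose by 1.35 ± 0.17 (SE), from 10.86 and 11.03 in vehicle to 12.21 and 12.38 with deltamethrin (limma adjusted p 0.0464). Ephx1, the microsomal epoxide hydrolase, read 10.97 and 10.76 against 11.77 and 11.43. Acetylcholinesterase (Ache) read 7.18 and 7.64 against 8.68 and 8.21, with a limma adjusted p of 0.169. Of 14 aldehyde and alcohol dehydrogenases, which oxidise the alcohols and aldehydes formed from many compounds, 0 passed. Both treated arrays were higher for 8 of the 14, beside 20.3% of all probe sets, and lower for 1, Aldh1a2 at -0.49. The smallest adjusted p-values in that list were 0.200 for Aldh3b1 (8.86 and 9.49 against 10.10 and 10.05) and 0.202 for Adh5 (8.28 and 8.45 against 8.94 and 9.08). The calls of Hmox1 and Nceh1 were lost when any 1 array was left out, with estimates of 1.72 to 2.04 and 1.26 to 1.43 and limma adjusted p-values of 0.364 to 0.678 for both.

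**Figure D5:**
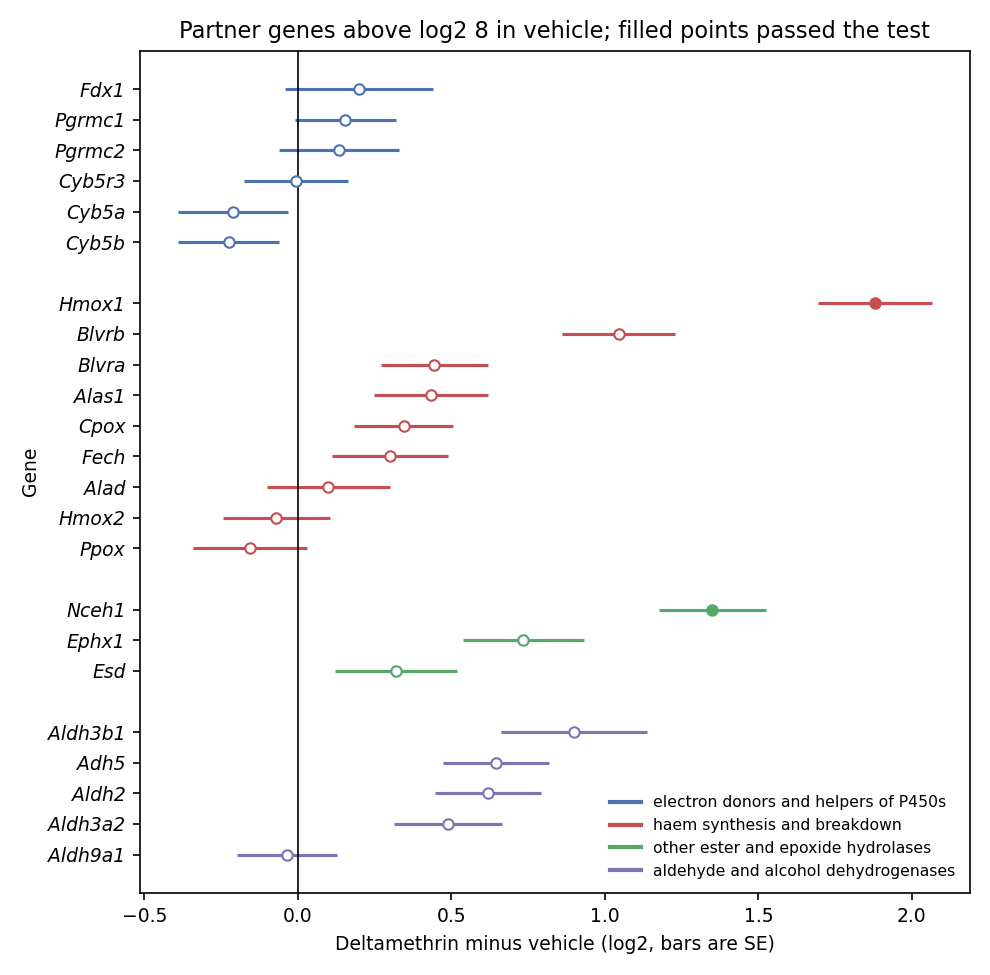
Deltamethrin minus vehicle (log2, bars of 1 SE) for genes above log2 8 in vehicle that serve P450s or act beside them, coloured by list. Filled points, Hmox1 at 1.88 and Nceh1 at 1.35, passed the limma test and open points did not.

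Receptors that control P450 genes gave 0 calls among 16 measured, and only 0.432% of all probe sets were called. Ahr itself was dim at 3.29 and 3.04 in vehicle and 4.08 and 3.28 with deltamethrin, while its partner Arnt read 9.72 and 9.84 against 9.54 and 10.17. Nr1i2 (PXR) and Nr1i3 (CAR) had differences of 0.03 and 0.18 and were below the middle of the arrays. The 2 of smallest p were Rara, at 10.54 and 10.30 against 9.98 and 10.02, and Vdr, at 8.31 and 7.72 against 7.60 and 7.55. Outside the P450s, 0 of 5 AhR target genes passed, again beside 0.432% of all probe sets. Both treated arrays were higher for 4 of the 5 and lower for 1, Ahrr at -0.095, beside 20.3% and 23.5% of all probe sets. Nqo1, a quinone reductase that NRF2 also controls, read 7.14 and 7.13 against 8.38 and 7.82 (limma adjusted p 0.164), and Tiparp read 9.94 and 9.91 against 10.25 and 10.23.

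The labelled cell type was checked with marker lists. Of 9 measured neuroblastoma and sympathoadrenal markers 8 were above log2 8 in vehicle, Th being the exception at 6.28 and 6.96. Their mean level was 12.33 to 12.35 in vehicle and 11.93 to 12.13 with deltamethrin. Of the 9, 0 passed the test, beside 0.432% of all probe sets. Both treated arrays were lower for 6 of the 9, beside 23.5% of all probe sets, and higher for 2, Prph and Th, at 0.62 and 0.90. Dim probe sets lower that share of all probe sets, and these markers were mostly bright. None of 8 hepatocyte, 5 fibroblast and 5 adrenocortical markers was above log2 8. The hepatocyte list averaged 4.05 to 4.38 in vehicle and 4.02 to 4.20 with deltamethrin. In bulk RNA, fewer expressing cells and less RNA per cell cannot be told apart.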

How the data were processed

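Total RNA with an integrity number above 9 (500 ng per array) was labelled and hybridised, per the labels' protocols. Per the submitters' processing notes, the authors used RMA and Transcriptome Analysis Console, and the deposited table gives log2 signals to 2 decimals. No source used here gives their versions or the RMA variant. RMA aligns the arrays' distributions, which would hide a change of total RNA.

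Probe sets were named from the platform annotation: 19572 had 1 symbol, 0 had several and 2634 had none. All 22206 were fitted with limma 3.58.1 in R 4.3.3 (lmFit, eBayes, 2 residual and 4.43 prior degrees of freedom), without a replicate block. Tests were two-sided, with Benjamini-Hochberg adjustment over all probe sets and calls at 0.05. "Rose", "fell" and "changed" mark calls, and a value differs as deltamethrin minus vehicle.

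The members and all gene lists were chosen with earlier results of these data known. Genes were named if above log2 8 in vehicle, called, among the 6 largest rises or falls above the median level, in the CYP1 family, among the 4 carboxylesterases of smallest p, or called (otherwise the 2 of smallest p) in a partner list. Some list members are given beside them outside this rule, and others are marked as picked after their values were seen. Of the former, Cyp2r1, Cyp27b1, Cyp26a1, Blvrb, Alas1, Ephx1 and Ache had both treated arrays beyond both controls. They do not stand for their lists. Alternatives were normalization, a dim filter, moderation, the threshold, the block and each array left out.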

Additional observations from a re-analysis of the deposited data

How the results depend on the processing

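Over all probe sets 96 calls became 0 when any 1 of the 4 arrays was left out (vehicle 1 or 2, deltamethrin 1 or 2), 312 when the dimmest 40% were dropped and 806 with a mean-variance trend. With quantile, cyclic loess or median centring there were 92, 116 and 97, and with robust moderation 89. Among the members the count of 0 calls became 1, Cyp4b1, under the dim filter and under the trend, and was 0 in every other setting run.

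The labels do not say whether equal replicate numbers mark a shared culture or day. Same-numbered arrays had deviations correlated at 0.127 over all probe sets, and 2 pairs are too few to settle the pairing. With the replicate number as a block 0 probe sets and 0 members were called, and Hmox1 and Nceh1 had limma adjusted p-values of 0.200 and 0.210, against ranges of 0.000112 to 0.678 and 0.0011 to 0.678 over their alternatives.

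The count above log2 8 was 7 at a threshold of 7 and 3 at a threshold of 9, and 6 with both vehicle arrays above 8 or with either 1 alone. The P450 median ran from -0.12 to 0.03 with 1 array left out and was 0.0025 after quantile normalization. The carboxylesterase median ran from -0.10 (without vehicle array 2) to 0.065 with 1 array left out. Of 322 alternatives for 30 named genes 303 kept direction and side of the threshold and 7 turned in sign. Without deltamethrin array 1 these were Cyp2c55 at -0.085, Cyp1b1 at -0.135, Cyp1a1 at 0.015 and Ptgis at 0.21, and Ptgis was also 0.17 without vehicle array 1, 0.0237 after quantile normalization and 0.0202 after cyclic loess. At the other end, without deltamethrin array 2, they were 0.645, 0.655, -0.185 and -0.245. The cause was not tested. The dim filter dropped 8 named genes, which then had no value.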

Other observations

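Cyp3a41a and Cyp3a41b, near-identical copies singled out after their values were seen, gave nearly the same readings. Cyp3a41a read 2.77 and 2.74 in vehicle and 3.19 and 2.40 with deltamethrin, and Cyp3a41b read 2.74 and 2.85 against 3.30 and 2.40. Probes for such copies can bind the same transcripts, so the pair counts as 1 measurement.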
